A study of Mus musculus with 6 samples.

Results

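Interferon-stimulated genes are the genes that cells switch on after an interferon binds its receptor. A fixed list of 42 of them was followed here among the 54446 genes of a mouse liver RNA sequencing table, by matching each gene identifier to its mouse GENCODE symbol. All 42 were found, and all 42 were abundant enough to be tested. The list holds 11 antiviral genes of the Ifit, Oas and Mx families, called type I style genes below, 7 guanylate-binding (GBP) and immunity-related (IRG) GTPases, 4 transcription factors, 5 nucleic acid sensors, 3 genes of the ISG15 system and 12 other effectors.

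The samples are 6 libraries of mouse liver cells, 2 from each of weeks 0, 2 and 7 of a treatment that the series title gives as MET/CAT and SB transposase. SB is the usual short form of Sleeping Beauty, a transposase that cuts a marked piece of DNA out of a carrier and inserts it into chromosomes, and the labels do not expand CAT. The labels give neither the vector, the promoter, the age or sex of the mice nor untreated mice at weeks 2 and 7, so treatment, time and age cannot be told apart. Week 0 replicate 1 is labelled as mixed FVB/N and C57BL/6. The other 5 labels carry a different number after C57BL/, higher by 2 from sample to sample, so the background of those mice is unsure. Nothing in the labels says that replicates came from separate animals, so p-values measure the spread between these libraries, which may be technical.

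Library totals ran from 49353453 to 58434358 deposited counts. The hepatocyte marker Alb was between 54070 and 98368 CPM, which are deposited counts relative to 1e6 counts of TMM-scaled library size, in every library. Both week 2 libraries were of the female type, with 13236 and 12804 counts of the X-inactivation RNA Xist and 0 counts of the Y-linked gene Ddx3y. The libraries of weeks 0 and 7 had 0 to 15 counts of Xist and 1897 to 2303 of Ddx3y. Sex and week therefore cannot be told apart in any comparison with week 2, and only week 7 against week 0 compares libraries of the same type.

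Type I interferons signal through a receptor found on nearly all cells and assemble a complex that includes STAT2 and IRF9, which binds a promoter element known as the interferon-stimulated response element (ISRE). Interferon gamma signals through another receptor and acts on another element, the gamma-activated site (GAS). Many promoters respond to both kinds. Ifit, Oas and Mx genes are the classical readout of type I interferon, and GBP and IRG GTPases, which attack the vacuoles of intracellular microbes, are the classical readout of interferon gamma. In liver, hepatocytes, macrophages and endothelium can all respond.

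The same kind of ISRE-type motif stands before the start sites of genes of both families. Promoters from RefSeq on build GRCm38.p6 were available for 32 of the 42 genes, and the 250 bases upstream of each start were searched on both strands for GAAANNGAAA, an ISRE-type motif. A match on the other strand reads TTTC, any pair of bases and TTTC. The motif was found in 16 of 32 promoters (50%), against 936 of 27025 (3.46%) over all genes in the promoter table. It was present in 6 of 6 GTPase promoters and in 5 of 8 of the type I style genes. A GAS-type motif, TTCNNNGAA, was found in 8 of 32 (25.0%), among them 3 of 6 GTPases and 2 of 8 type I style genes, against 2197 of 27025 (8.13%). A match describes these letters and does not show a bound site. The windows of 80 bases below, all upstream of the start and read 5′ to 3′ on the gene's strand, are shown for genes whose levels are described next, with the ISRE-type matches in capitals and overlapping matches run together.
Isg15, chr4:156200846-156200925, minus strand: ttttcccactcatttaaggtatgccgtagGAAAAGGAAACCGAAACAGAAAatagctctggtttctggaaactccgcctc
Ifit1, chr19:34640759-34640838, plus strand: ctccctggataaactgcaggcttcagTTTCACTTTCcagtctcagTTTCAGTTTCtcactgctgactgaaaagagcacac
Ifit3, chr19:34583355-34583434, plus strand: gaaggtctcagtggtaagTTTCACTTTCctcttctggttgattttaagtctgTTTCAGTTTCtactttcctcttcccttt
Oas1a, chr5:120907526-120907605, minus strand: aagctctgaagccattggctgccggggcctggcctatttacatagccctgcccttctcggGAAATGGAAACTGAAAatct
Rsad2, chr12:26456528-26456607, minus strand: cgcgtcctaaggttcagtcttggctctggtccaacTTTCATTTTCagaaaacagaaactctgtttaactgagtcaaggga
Gbp2, chr3:142620569-142620648, plus strand: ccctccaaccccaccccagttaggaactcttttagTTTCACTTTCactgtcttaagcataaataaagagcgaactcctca
Gbp3, chr3:142559964-142560043, plus strand: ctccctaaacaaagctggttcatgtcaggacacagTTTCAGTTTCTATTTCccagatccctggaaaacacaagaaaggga
Gbp7, chr3:142530248-142530327, plus strand: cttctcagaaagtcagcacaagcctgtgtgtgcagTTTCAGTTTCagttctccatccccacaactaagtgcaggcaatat
Igtp, chr11:58199476-58199555, plus strand: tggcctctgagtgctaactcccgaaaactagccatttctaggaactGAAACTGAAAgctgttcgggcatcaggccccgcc
Irgm1, chr11:48871421-48871500, minus strand: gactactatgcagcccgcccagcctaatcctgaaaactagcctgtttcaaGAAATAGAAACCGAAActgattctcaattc

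In these windows Isg15 carries 3 overlapping matches in a row, and Gbp2, Gbp7 and Igtp carry 1 each. The window of Ifit3b, at chr19:34607751-34607830, has the same letters as that of Ifit3. Promoters with the motif were as frequent among the genes higher at week 2 (8 of 16) as among those not called (8 of 16), so its presence in these 250 bases did not separate them.

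Across the whole list, week 2 stood above week 0. Here and below a gene is called where edgeR's quasi-likelihood test gave an adjusted p under 0.05 over all 15368 genes tested. At week 2, 20 of the 42 genes were higher than at week 0 (47.6%) and 0 were lower, beside 9.81% higher and 8.81% lower among all tested genes. Mx2 was the 1 member lower at an unadjusted p under 0.05 in edgeR, limma voom called it lower, and DESeq2 called 0 lower. The median log2 fold change of the list was 0.59, against 0.01 over all genes. Both week 2 libraries lay above both week 0 libraries for 81% of members and below them for 7.14%. Among all tested genes these shares were 31.4% and 28.8%, so such an order in a single gene is common. With week 2 replicate 1 or week 2 replicate 2 left out, 12 and 11 genes were higher.

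Fewer members were called at week 7. Against week 0, 8 of 42 were higher (19.0%) and 1, Irf1, was lower (2.38%), beside 7.58% and 6.23% among all tested genes, and the median log2 fold change was 0.25, against 0.00 over all genes. The count higher was 5 without either week 0 library and 4 without week 7 replicate 2. Between weeks 2 and 7, 12 of 42 were lower at week 7 (28.6%) and 3 were higher (7.14%), beside 9.73% and 10.1% among all tested genes. The number lower was 7 without week 2 replicate 1 or without week 7 replicate 1, and the number higher was 1 without week 2 replicate 2. Mean levels ran in the order week 2, week 7, week 0 for 17 genes, and 10 others were highest at week 2 and lowest at week 7. The remaining 15 followed 4 other orders. Both week 7 libraries lay above both week 0 libraries for 47.6% of members and below them for 19%. Among all tested genes these shares were 28.2% and 27.8%.

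**Figure D1:**
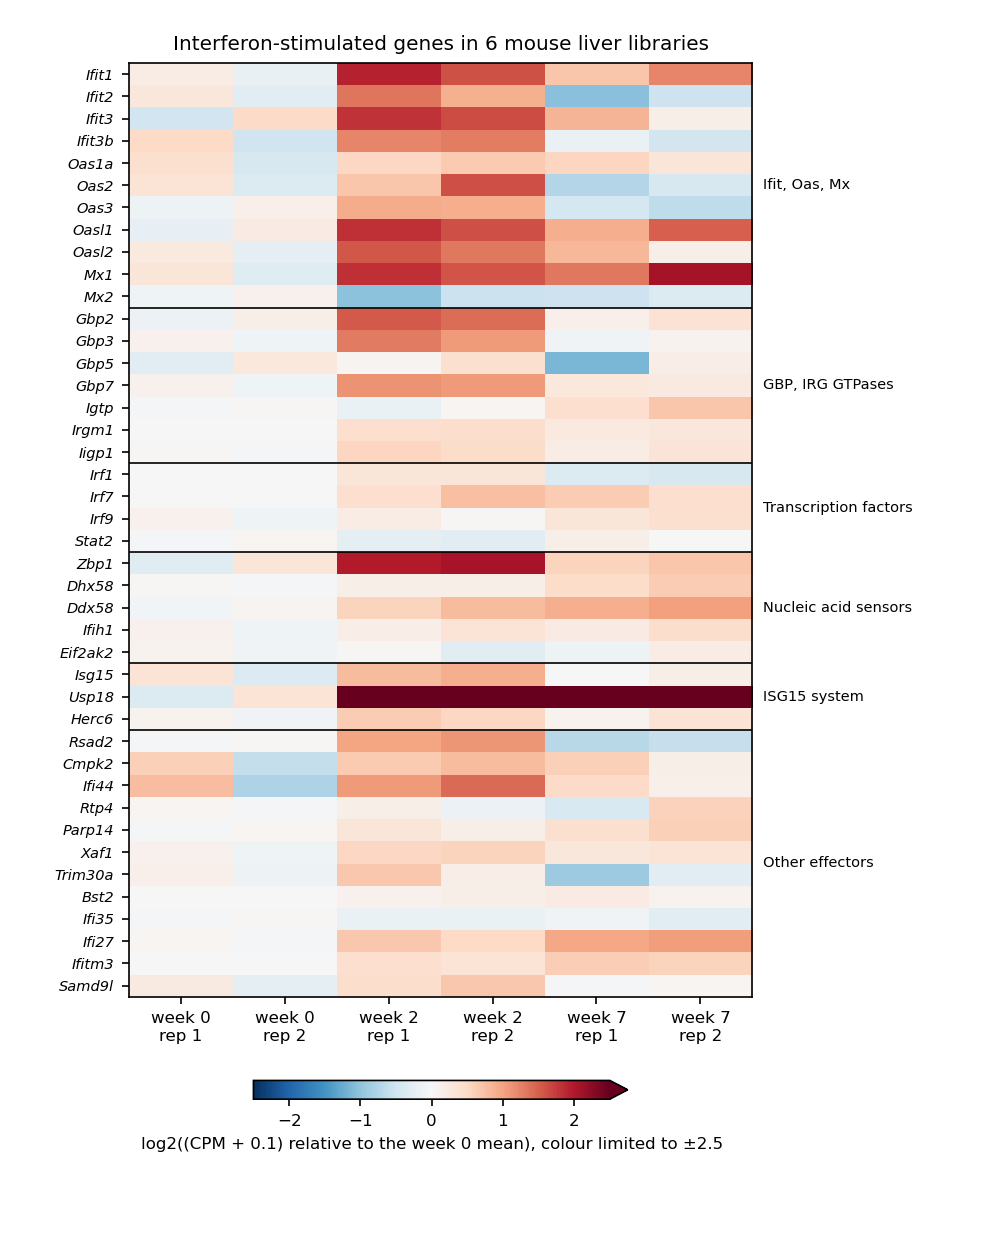
Level of each of the 42 genes (rows, by role) in each of the 6 libraries (columns), as log2 of CPM plus 0.1 relative to the week 0 mean of the gene. The week 2 columns are red for most genes of the Ifit and Gbp families, the week 7 columns are paler, and Usp18 passes the end of the colour scale at both later weeks.

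The antiviral effectors of the Ifit, Oas and Mx families had the larger median fold at week 2. There they had a median log2 fold change of 1.39 and 5 of 11 were higher (45.5%, beside 9.81% of all tested genes). At week 7 the median was 0.38 and 1 of 11 was higher (9.09%), near the 7.58% of all tested genes. The list median per library, as log2 ratio to the week 0 mean, was 0.25 and -0.25 at week 0, 1.33 and 1.33 at week 2, then 0.53 and 0.14 at week 7, so week 2 lay apart from both other weeks while week 7 overlapped week 0. The week 7 median moved with single libraries and genes. It was 0.0218 without week 0 replicate 2, 0.0722 without week 7 replicate 1, and 0.0507 without the members that share long stretches with another gene.

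Ifit proteins bind viral RNA and the translation machinery. Ifit1 was at 1.88 and 1.45 CPM at week 0, 6.59 and 5.17 at week 2, then 2.72 and 3.97 at week 7. It was 3.52-fold higher at week 2 (log2 1.82 ± 0.29 SE, edgeR adjusted p = 0.00247). Its week 7 libraries also lay above both week 0 libraries, with a 2.01-fold difference that was not called (edgeR adjusted p = 0.0513) and was called by DESeq2 (adjusted p = 0.034). Ifit2 was at 3.09 and 2.03 CPM at week 0, 6.45 and 4.69 at week 2, then 1.17 and 1.72 at week 7. Its week 2 level was 2.18-fold that of week 0 (log2 1.12 ± 0.32 SE, edgeR adjusted p = 0.0392), and its week 7 level was 3.86-fold below week 2 (edgeR adjusted p = 0.00336). Both week 7 libraries of Ifit2 were below both week 0 libraries, without a call (log2 -0.83, edgeR adjusted p = 0.141). The week 7 means of Ifit1 and Ifit2, 2 genes of the same family, thus lay on opposite sides of week 0, a difference that was not tested. The week 2 call of Ifit2 was lost without week 0 replicate 2 (edgeR adjusted p = 0.185), week 2 replicate 1 (0.234) or week 2 replicate 2 (0.064), and with a replicate block (0.0574).

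Ifit3 was at 1.72 and 3.42 CPM at week 0, 8.74 and 7.78 at week 2, then 4.48 and 2.70 at week 7, or 3.21-fold higher at week 2 (log2 1.68 ± 0.36 SE, edgeR adjusted p = 0.0146). Ifit3b was at 1.68 and 0.788, 2.82 and 2.94, and 1.02 and 0.821 CPM, with no call at week 2 (log2 1.22, edgeR adjusted p = 0.0798). Of the 75-base stretches of their exons, 41.1% of Ifit3 and 35.7% of Ifit3b are held by the other gene, so reads can be split between them and each value alone is uncertain. Summed, the pair was at 3.41 and 4.21 CPM at week 0, 11.6 and 10.7 at week 2, then 5.50 and 3.52 at week 7, which is 2.93-fold and 1.18-fold the week 0 mean. The pair was highest at week 2, and its week 7 libraries overlapped week 0. Without week 2 replicate 1 or week 2 replicate 2 the call of Ifit3 was lost (edgeR adjusted p = 0.0772 and 0.0585).

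Oas enzymes make the short oligoadenylates that activate RNase L. Oasl1, known as a brake on Irf7 translation, was at 0.781 and 1.06 CPM at week 0, 3.50 and 2.97 at week 2, then 1.80 and 2.76 at week 7. It was the only type I style gene called at week 7, 2.48-fold higher (log2 1.31 ± 0.35 SE, edgeR adjusted p = 0.0399), after 3.52-fold at week 2 (log2 1.81 ± 0.35 SE, edgeR adjusted p = 0.00708). The week 7 call of Oasl1 was lost in limma voom (adjusted p = 0.0901), with only the 4 libraries compared (edgeR adjusted p = 0.0792), with a replicate block (0.0579), and without any 1 library other than week 7 replicate 1 (0.0681 to 0.195). Without week 2 replicate 1 its week 2 call was lost too (edgeR adjusted p = 0.0505).

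Oasl2 was at 1.66 and 1.14 CPM at week 0, 4.25 and 3.61 at week 2, then 2.54 and 1.55 at week 7. It was 2.81-fold higher at week 2 (log2 1.49 ± 0.34 SE, edgeR adjusted p = 0.017), and week 7 overlapped week 0. That call was lost without week 0 replicate 2, week 2 replicate 1 or week 2 replicate 2 (edgeR adjusted p = 0.0909, 0.0992 and 0.0534). Oas1a, Oas2 and Oas3 were not called at either week. Oas1a was at 2.84 and 1.60 CPM at week 0, 3.10 and 3.43 at week 2, then 3.13 and 2.64 at week 7, and 47.6% of its 75-base stretches are shared with Oas1g. Oas2 and Oas3 were at most 1.25 and 1.12 CPM in any library. For both, the week 2 libraries lay above the week 0 libraries without a call (log2 1.39 and 1.03, edgeR adjusted p = 0.31 and 0.306).

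The Mx genes belong to a family of dynamin-like GTPase genes. Mx1 started from 9 and 4 deposited counts, with 42 and 34 at week 2, then 25 and 44 at week 7. A read pair was taken to be worth about 4 counts, so week 0 lay below a floor of 12 counts (3 read pairs) and no fold is given. Mx1 was not called by edgeR at week 2 (adjusted p = 0.127) or week 7 (0.139), and was called by DESeq2 at both (0.0438 and 0.0464). Mx2 was the only type I style gene with a lower mean at week 2, at 4.35 and 5.12 CPM, 2.27 and 3.24, and 3.28 and 3.70 in the order of the weeks. The difference at week 2 was not called by edgeR (log2 -0.78, adjusted p = 0.0669) and was called by limma voom (adjusted p = 0.047).

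The GBP and IRG GTPases were called at the greater rate and with smaller folds. At week 2, 5 of 7 were higher (71.4%, beside 9.81% of all tested genes), with a median log2 fold change of 0.50. At week 7, 2 of 7 were higher (28.6%, beside 7.58% of all tested genes), with a median of 0.24. Their list median per library was -0.00 and 0.00 at week 0, 0.54 and 0.46 at week 2, then 0.19 and 0.29 at week 7, so the 3 weeks did not overlap. Set beside the type I style genes, the median at week 2 was smaller (0.50 against 1.39) while the share called was larger, and the pooled SD of the list median within a week was 0.05 against 0.26. The difference between the 2 families was not tested. Depth also differed: at week 0, 6 of 7 GTPases and 0 of 11 type I style genes were above 5 CPM in both libraries.

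**Figure D2:**
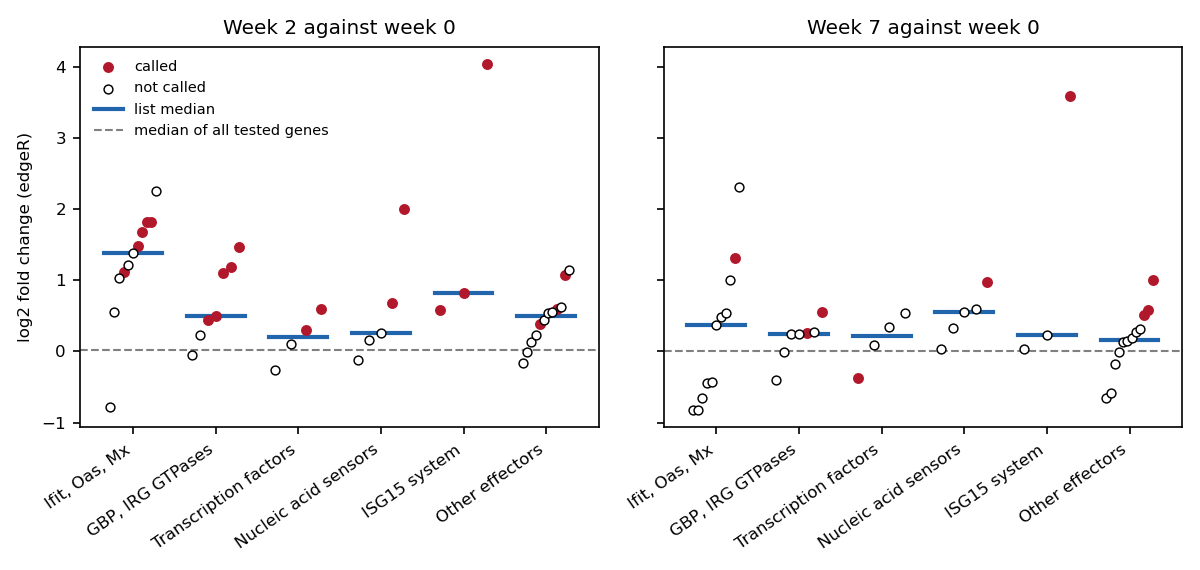
Log2 fold change of each gene by role at week 2 (left) and week 7 (right) against week 0, with called genes filled, list medians as bars and the median of all tested genes as a dashed line. At week 2 the type I style genes centre at 1.39 and the GTPases at 0.50, and at week 7 the medians are 0.38 and 0.24.

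The 3 GBP genes called at week 2 were each more than 2-fold higher there. Gbp2 was at 5.97 and 7.26 CPM at week 0, 19.1 and 17.6 at week 2, then 7.17 and 8.43 at week 7. It was 2.77-fold higher at week 2 (log2 1.47 ± 0.16 SE, edgeR adjusted p = 0.0003) and 2.35-fold lower at week 7 than at week 2 (edgeR adjusted p = 0.000825). Gbp3 was at 6.53 and 5.64 CPM, then 15.1 and 12.7, then 5.71 and 6.43, a 2.28-fold rise at week 2 (log2 1.19 ± 0.17 SE, edgeR adjusted p = 0.00145). Gbp7 was at 14.7 and 12.7 CPM, then 30.1 and 28.8, then 16.5 and 16.0, or 2.15-fold higher at week 2 (log2 1.10 ± 0.12 SE, edgeR adjusted p = 0.000219). At week 7 the 3 genes were not called against week 0 (log2 0.24, -0.00 and 0.24, edgeR adjusted p = 0.404, 0.995 and 0.215), and each was called lower than at week 2. Both week 7 libraries of Gbp7 still lay above both week 0 libraries, while those of Gbp2 and Gbp3 overlapped week 0. Gbp7 shares 11.3% of its 75-base stretches, with an overlapping transcript of the same strand and with Gbp3. Gbp5, which helps assemble inflammasomes, was between 0.815 and 2.57 CPM and was not called in any comparison.

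The IRG genes Iigp1 and Irgm1 had smaller folds. Iigp1, an effector IRG that loads onto parasite vacuoles, was at 246 and 237 CPM at week 0, 352 and 332 at week 2, then 276 and 302 at week 7. It was 1.41-fold higher at week 2 (log2 0.50 ± 0.05 SE, edgeR adjusted p = 0.00025) and 1.2-fold at week 7 (log2 0.26 ± 0.05 SE, edgeR adjusted p = 0.0142). Irgm1, which keeps effector IRGs off the cell's own membranes, was at 31.6 and 31.6 CPM, then 42.5 and 43.1, then 37.4 and 38.6. It was 1.35-fold higher at week 2 (log2 0.44 ± 0.08 SE, edgeR adjusted p = 0.00456), and its week 7 libraries lay between the other weeks (log2 0.27, edgeR adjusted p = 0.0538). DESeq2 and scaling by total counts called Irgm1 at week 7 (adjusted p = 0.0188 and 0.0346).

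Igtp, another regulatory IRG, was called at week 7 but not at week 2. It was at 57.4 and 59.7 CPM at week 0, 52.1 and 60.7 at week 2, then 78.3 and 94.3 at week 7. Week 2 overlapped week 0 (log2 -0.05, edgeR adjusted p = 0.797), and week 7 was 1.47-fold above week 0 (log2 0.56 ± 0.11 SE, edgeR adjusted p = 0.00954) and above week 2 (log2 0.61, edgeR adjusted p = 0.00419). Exons of Igtp overlap those of Irgm2 on the same strand over 8.01% of their bases, so reads of the pair can be shared. Irgm2, singled out after its values were seen, was at 30.7 and 28.3 CPM at week 0, 45.4 and 8.78 at week 2, then 53.7 and 51.3 at week 7. Its week 2 replicate 2 stood far below the other 5 libraries, which was not so for Igtp. With all 6 libraries Irgm2 was not called at week 7 against week 0 (log2 0.83, edgeR adjusted p = 0.66). With only the 4 libraries compared, which leaves week 2 out, it was called (log2 0.84, edgeR adjusted p = 0.00134). Without week 2 replicate 1 or week 2 replicate 2 the log2 fold change was 0.83. Against week 0, the week 7 call of Igtp was lost without week 0 replicate 1, week 0 replicate 2 or week 7 replicate 2 (edgeR adjusted p = 0.0753, 0.0524 and 0.0514), and that of Iigp1 without week 0 replicate 2 or week 7 replicate 2 (0.0885 and 0.0711).

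Of the 4 transcription factors, 2 were higher at week 2 and 1 was lower at week 7, beside 9.81% and 6.23% of all tested genes. Irf1, an early factor of the interferon gamma response, was at 32.9 and 33.6 CPM at week 0, 41.1 and 41.0 at week 2, then 26.4 and 25.2 at week 7. It was 1.23-fold higher at week 2 (log2 0.30 ± 0.08 SE, edgeR adjusted p = 0.0332) and 1.29-fold lower at week 7 (log2 -0.37 ± 0.08 SE, edgeR adjusted p = 0.0187), and was the only member called lower against week 0. Its replicates differed by less than 2 CPM in each week, but both calls were lost without any 1 library of the weeks compared (edgeR adjusted p = 0.0994 to 0.137 at week 2 and 0.0554 to 0.0868 at week 7), and the week 2 call with a replicate block (0.0602). The drop from week 2 to week 7 was larger (log2 -0.67, edgeR adjusted p = 0.000556) and held in all 16 alternatives.

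Irf7, which amplifies type I interferon production, was at 6.95 and 7.05 CPM at week 0, 9.36 and 11.8 at week 2, then 11.0 and 9.41 at week 7. It was 1.51-fold higher at week 2 (log2 0.60 ± 0.17 SE, edgeR adjusted p = 0.0436) and not called at week 7 (log2 0.54, edgeR adjusted p = 0.075), though both later weeks lay above week 0. The week 2 call was lost without any 1 library other than week 2 replicate 1 (edgeR adjusted p = 0.0535 to 0.255), with only the 4 libraries compared (0.0565) and with a replicate block (0.0729). Irf9 and Stat2, partners in the type I complex, were not called in any comparison. Irf9 was between 14.7 and 21 CPM and Stat2 between 15.0 and 20.3.

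Among the nucleic acid sensors, Zbp1 and Ddx58 were higher at week 2, Ddx58 also at week 7, and the other 3 were not called. Of all tested genes, 9.81% were higher at week 2 and 7.58% at week 7. Zbp1, which binds Z-form nucleic acid and can start necroptosis, was at 4.05 and 6.20 CPM at week 0, 20.0 and 21.2 at week 2, then 7.39 and 8.14 at week 7. It was 4.02-fold higher at week 2 (log2 2.01 ± 0.20 SE, edgeR adjusted p = 0.000179) and 2.65-fold lower at week 7 than at week 2 (edgeR adjusted p = 0.00129). Its week 7 libraries stayed above both week 0 libraries without a call (log2 0.60, edgeR adjusted p = 0.0878), and were called without week 0 replicate 2 (0.0191). Ddx58, encoding the RNA sensor RIG-I, had its highest mean at week 7, not called against week 2 (log2 0.30, edgeR adjusted p = 0.178). It was at 8.98 and 9.89 CPM at week 0, 13.9 and 16.3 at week 2, then 17.7 and 19.3 at week 7, or 1.60-fold (log2 0.68 ± 0.14 SE, edgeR adjusted p = 0.00969) and then 1.97-fold above week 0 (log2 0.97 ± 0.14 SE, edgeR adjusted p = 0.00227). The week 7 call held in all 16 alternatives, and the week 2 call was lost without week 0 replicate 1 or week 2 replicate 2 (edgeR adjusted p = 0.0609 and 0.0718). Dhx58, Ifih1 and Eif2ak2, which encode the related helicases and the kinase PKR, were not called, with log2 fold changes from -0.12 to 0.26 at week 2 and 0.03 to 0.56 at week 7.

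Usp18 had the largest fold of the 42 genes at both weeks. Its protein removes the ubiquitin-like ISG15 from other proteins and, at the receptor, dampens type I interferon signalling. It was at 0.641 and 1.08 CPM at week 0, from 32 and 52 deposited counts, then 14.5 and 13.7 CPM at week 2, then 11.7 and 9.02 at week 7. The 4 later libraries lay far above both week 0 libraries. The rise was 16.4-fold at week 2 (log2 4.04 ± 0.26 SE, edgeR adjusted p = 1.01e-05) and 12.0-fold at week 7 (log2 3.59 ± 0.26 SE, edgeR adjusted p = 4.94e-05), and weeks 2 and 7 were not called different (log2 -0.45, edgeR adjusted p = 0.2). Both calls held in all 16 alternatives. Exons of Usp18 overlap a transcript of the opposite strand over 4.44% of their bases, and the library kit does not mark strand.

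The other 2 genes of the ISG15 system had smaller folds. Isg15 itself was at 7.69 and 4.75 CPM at week 0, 10.6 and 11.5 at week 2, then 6.00 and 6.71 at week 7. It was 1.77-fold higher at week 2 (log2 0.82 ± 0.23 SE, edgeR adjusted p = 0.0378), and at week 7 its libraries lay between the 2 week 0 libraries (log2 0.03, edgeR adjusted p = 0.961). Herc6, the ligase that attaches ISG15 in mice, was at 11.7 and 10.3 CPM, then 17.1 and 15.8, then 11.7 and 14.0, or 1.49-fold higher at week 2 (log2 0.58 ± 0.15 SE, edgeR adjusted p = 0.0245). Usp18 stayed high at week 7 where Isg15 and Herc6 were not called. The week 2 call of Isg15 was lost without any 1 library other than week 0 replicate 1 (edgeR adjusted p = 0.0544 to 0.156), with only the 4 libraries compared (0.0599) and with a replicate block (0.0574), and that of Herc6 without any 1 week 0 or week 2 library (0.0511 to 0.133). Leaving Usp18 out of the 42, the median log2 fold change was 0.58 at week 2 and 0.24 at week 7, with 19 and 7 higher.

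**Figure D3:**
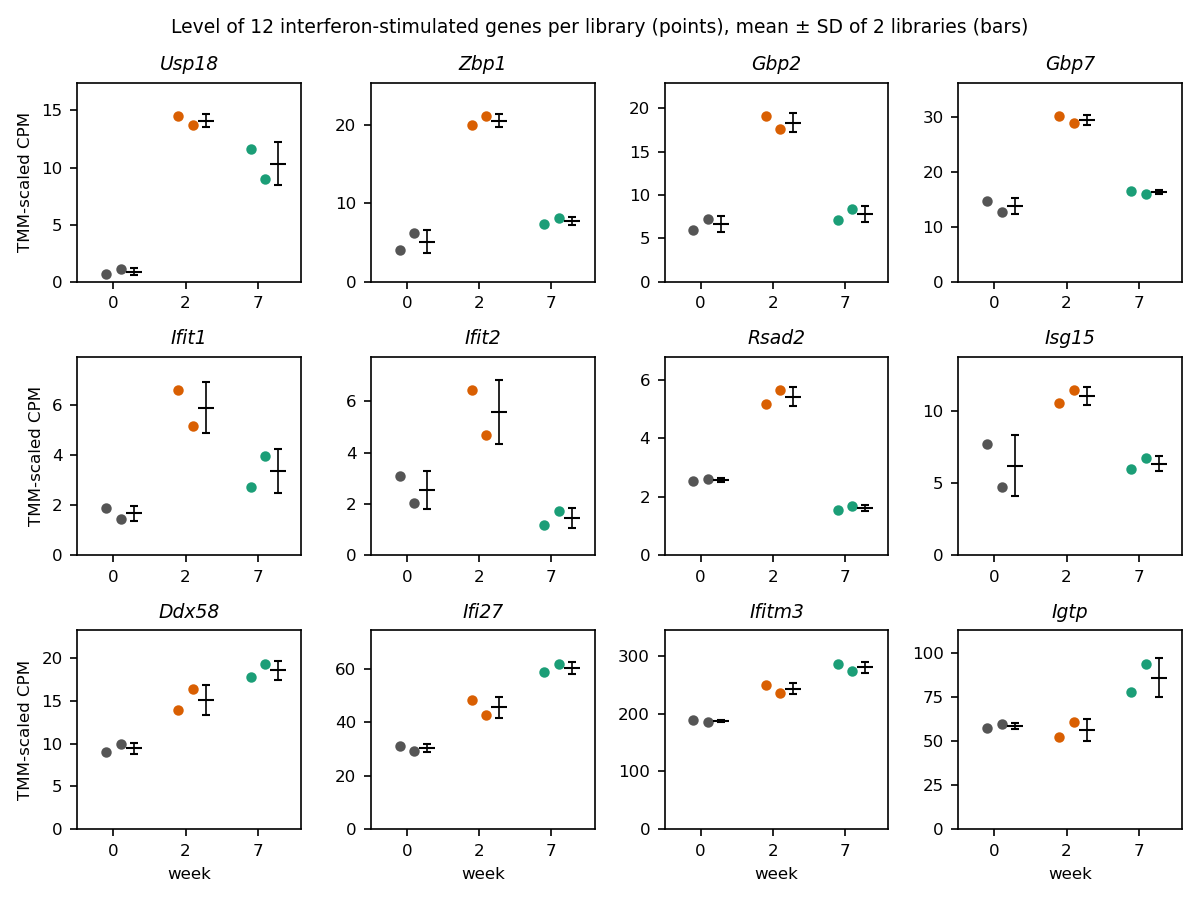
TMM-scaled CPM of 12 genes, chosen after their values were seen, in each library (points) with the mean ± SD of the 2 libraries of each week (bars). Zbp1, Gbp2, Gbp7, Ifit2, Rsad2 and Isg15 are highest at week 2, and Usp18 is far above week 0 at both later weeks. Ddx58, Ifi27 and Ifitm3 are highest at week 7, without a call against week 2 for Ddx58.

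Among the 12 other effectors, Rsad2, Ifi27 and Ifitm3 were higher at week 2, and Ifi27, Ifitm3 and Parp14 were higher at week 7. These are 25% at each week, beside 9.81% and 7.58% of all tested genes. Rsad2, the antiviral protein viperin, was at 2.52 and 2.61 CPM at week 0, 5.19 and 5.65 at week 2, then 1.56 and 1.70 at week 7. It was 2.11-fold higher at week 2 (log2 1.08 ± 0.23 SE, edgeR adjusted p = 0.0116) and 3.33-fold lower at week 7 than at week 2 (edgeR adjusted p = 0.00102). Both week 7 libraries lay below both week 0 libraries without a call (log2 -0.66, edgeR adjusted p = 0.108), the same order as for Ifit2. That order held for 27.8% of all tested genes. The week 2 call of Rsad2 was lost without week 0 replicate 1, week 2 replicate 1 or week 2 replicate 2 (edgeR adjusted p = 0.0598, 0.0501 and 0.0783).

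Ifi27 and Ifitm3 were the only members called higher in all 3 comparisons. Ifi27, a mitochondrial and nuclear envelope protein, was at 31.3 and 29.2 CPM at week 0, 48.3 and 42.9 at week 2, then 58.8 and 62.0 at week 7. It was 1.51-fold (log2 0.59 ± 0.09 SE, edgeR adjusted p = 0.00174) and then 2.00-fold above week 0 (log2 1.00 ± 0.09 SE, edgeR adjusted p = 0.000157). Ifitm3, which blocks the fusion of viruses in endosomes, was at 188 and 185 CPM, then 250 and 236, then 287 and 273, or 1.30-fold (log2 0.38 ± 0.05 SE, edgeR adjusted p = 0.000526) and 1.5-fold above week 0 (log2 0.58 ± 0.05 SE, edgeR adjusted p = 8.25e-05). The 3 weeks did not overlap for either gene. The further step from week 2 to week 7 was lost without week 2 replicate 2 for both (edgeR adjusted p = 0.086 for Ifi27 and 0.122 for Ifitm3), without week 7 replicate 2 for Ifi27 (0.0697), and for Ifitm3 without week 7 replicate 1 (0.0834) or with upper-quartile or total-count scaling (0.0618 and 0.0554).

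Parp14, an ADP-ribosyltransferase, was at 17.2 and 18.4 CPM at week 0, 22.1 and 19.8 at week 2, then 23.7 and 27.1 at week 7. It was called at week 7 alone, 1.42-fold higher (log2 0.51 ± 0.12 SE, edgeR adjusted p = 0.0216), and not without week 0 replicate 1, week 0 replicate 2 or week 7 replicate 2 (edgeR adjusted p = 0.115, 0.064 and 0.123). The remaining 8 of this role, Cmpk2, Ifi44, Rtp4, Xaf1, Trim30a, Bst2, Ifi35 and Samd9l, were not called against week 0. Bst2, the virion tether tetherin, was between 102 and 119 CPM in all 6 libraries. Trim30a was lower at week 7 than at week 2 (log2 -1.03, edgeR adjusted p = 0.0289), a call lost without week 2 replicate 1 or week 7 replicate 1 (0.193 and 0.155) and with a replicate block (0.0552). In all, 18 of the 42 genes were not called in any of the 3 comparisons. The matching count over all tested genes was not made.

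Levels between genes were compared as CPM per kilobase of exon. At week 0 the highest were Ifitm3 at 275, Bst2 at 114, Iigp1 at 41.5, Igtp at 28.9 and Ifi27 at 20.6, and the lowest were Oas2 at 0.0797, Oas3 at 0.0765 and Mx1 at 0.0348. On this scale Usp18 stood 36th of 42 at week 0, with 0.308, and reached 5.06 at week 2 and 3.70 at week 7. The type I style gene with the highest level was Ifit3, at 1.47 at week 0 and 4.73 at week 2.

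Other genes of the pathway were read from the same fit. It called 9.81% of all tested genes higher and 8.81% lower at week 2, and 7.58% and 6.23% at week 7. Of 21 interferon ligand genes, 19 had 0 counts in every library, and the highest value was 4 counts, in Ifnb1 and Ifng. Ifng, the type II interferon, had 0 and 0 counts at week 0, 4 and 3 at week 2, then 0 and 4 at week 7, and Ifnb1 had 4 counts in 1 week 2 library alone. Summed over the 21, the counts were 0 and 0 at week 0, 4 and 7 at week 2, then 0 and 4 at week 7, all under the floor of 12 counts, so no difference between weeks could be read from them at this depth. Ifnar1, a chain of the type I receptor, was lower at week 7, at 33.4 and 36.4, 34.6 and 33.0, and 21.7 and 25.7 CPM (log2 -0.56 ± 0.11 SE at week 7, edgeR adjusted p = 0.0093). Without week 0 replicate 2 or week 7 replicate 1 the call of Ifnar1 was lost (edgeR adjusted p = 0.0596 in both). Among 10 receptor and JAK-STAT genes tested, Ifngr2 and Stat3 were the 2 higher at week 2, and 1 was without week 0 replicate 1 or week 2 replicate 2.

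The list of 8 negative regulators includes Usp18, described above as one of the 42. Of the other 7, Socs3 was higher at week 7, and Socs3 and Ptpn6 at week 2. Socs3, an inhibitor of JAK kinases best known downstream of interleukin-6, was at 3.89 and 3.92 CPM at week 0, 12.0 and 11.5 at week 2, then 17.3 and 17.3 at week 7, or 3.02-fold (edgeR adjusted p = 6.37e-05) and 4.44-fold above week 0 (edgeR adjusted p = 2.41e-05). Of 15 genes of nucleic acid sensing, 0 were called at week 7 by edgeR, where 1, Ikbke, had an unadjusted p under 0.05. Ikbke was called by DESeq2 (adjusted p = 0.0246) and limma voom (0.0334), and by edgeR with total counts only (0.0423), no filter (0.0464) or counts divided by 4 (0.0454). The smallest p-values there were those of the kinase gene Ikbke (log2 0.47, edgeR adjusted p = 0.0532) and the adaptor gene Ticam1 (log2 -0.27, edgeR adjusted p = 0.214), and Ticam1 was the 1 gene of this list called at week 2, lower (log2 -0.55, edgeR adjusted p = 0.0179). That call was lost without any 1 week 0 or week 2 library (edgeR adjusted p = 0.0582 to 0.105).

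The GBP and IRG genes outside the 42 split in direction at week 7, where 7.58% of all tested genes were higher and 6.23% lower. Of 12, 4 were higher and 3 were lower, and 2 were higher without week 0 replicate 1 or without week 7 replicate 1. At week 2, 4 were higher, beside 9.81% of all tested genes. Another 1 was lower at an unadjusted p under 0.05 in edgeR but not after adjustment or in DESeq2. Tgtp1, an IRG gene, was at 0.861 and 1.35 CPM at week 0, 4.80 and 5.76 at week 2, then 8.47 and 9.27 at week 7, or 8.03-fold higher at week 7 (edgeR adjusted p = 0.000152). Its close copy Tgtp2 was at 2.97 to 5.08 CPM with no call, so the split of reads between the pair is uncertain. Gbp9 and Gbp10 were 2.06-fold (edgeR adjusted p = 0.00128) and 1.68-fold higher at week 7 (edgeR adjusted p = 0.0133). Gbp11 was at 211 and 211, 238 and 222, and 146 and 144 CPM and was lower at week 7 (log2 -0.54, edgeR adjusted p = 0.000126). Gbp2b and Gbp8 were lower as well (log2 -1.15 and -1.26, edgeR adjusted p = 0.000741 and 0.0125). The GBP genes called at week 7 against week 0 thus went both ways. The call of Gbp10 was lost without week 0 replicate 1 or week 7 replicate 1 (edgeR adjusted p = 0.0728 and 0.0833), and that of Gbp8 without week 0 replicate 1 (0.0731).

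Of 34 further type I interferon targets tested, 7 were higher and 2 lower at week 7, and 7 and 2 were at week 2. Among all tested genes, 7.58% were higher and 6.23% lower at week 7, and 9.81% and 8.81% at week 2. The share of these targets called lower did not exceed that of all tested genes at either week. Cxcl9, a T cell attracting chemokine induced mainly by interferon gamma, was at 7.15 and 8.19 CPM at week 0, 37.3 and 39.3 at week 2, then 19.6 and 24.7 at week 7, or 4.99-fold (edgeR adjusted p = 6.08e-06) and 2.89-fold above week 0 (edgeR adjusted p = 0.000166). Apol9a was 1.43-fold higher at week 7 (edgeR adjusted p = 0.00677). Slfn5 and Epsti1 were lower (log2 -0.58 and -1.37, edgeR adjusted p = 0.0278 and 0.0316). The count higher at week 7 was 4 without week 0 replicate 2 and 3 without week 7 replicate 2, and at week 2 it was 3 without week 0 replicate 1 and 2 without either week 2 library. The calls of Slfn5 and Epsti1 were lost with only the 4 libraries compared (edgeR adjusted p = 0.0538 and 0.0623) and without any 1 of several libraries (0.0774 to 0.126 for Slfn5, without either library of week 0 or week 7, and 0.0522 to 0.123 for Epsti1, without any 1 library other than week 7 replicate 1), and that of Slfn5 with a replicate block (0.0517).

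Markers of some other liver cells were highest at week 2 as well. For the counts below, 9.81% of all tested genes were higher at week 2 and 6.23% were lower at week 7. Fewer cells of a type and less RNA per cell cannot be told apart in such bulk libraries. The summed level of 7 Kupffer cell markers, the resident liver macrophages, was 400 and 391 CPM at week 0, 538 and 541 at week 2, then 290 and 284 at week 7, with 5 of 7 higher at week 2 and 7 of 7 lower at week 7 (3 of 7 without week 0 replicate 1). For 7 monocyte and macrophage markers the sums were 80.5 and 80.2, 146 and 141, and 78.5 and 78.4 CPM, with 2 of 7 higher at week 2 (4 without week 0 replicate 1, 1 without week 2 replicate 2). Lyz2 made up most of the monocyte and macrophage sums, at 65.1 and 67.6, 122 and 118, and 64.6 and 66.8 CPM. The markers Ly6c2, Ccr2 and Itgam were at most 1.80 CPM and were not called by edgeR. Sinusoidal endothelium markers summed to 220 and 229, 286 and 267, and 205 and 213 CPM. Of these 5 markers, 2 were higher at week 2 and 1, Clec4g, was lower at week 7. Each of these sums was highest at week 2, as were Gbp2, Zbp1 and Ifit1. At week 7 the Kupffer sum was below week 0. By the sign of the log2 fold change, 7700 of all 15368 tested genes were above week 0 there and 7643 were below. Of the 42 members, 30 were above and 12 were below, with 8 and 1 called. Usp18, Ddx58, Ifi27 and Ifitm3 were among those above, and Irf1, Ifit2 and Rsad2 among those below. The part of these cell types in the results was not tested.

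**Figure D4:**
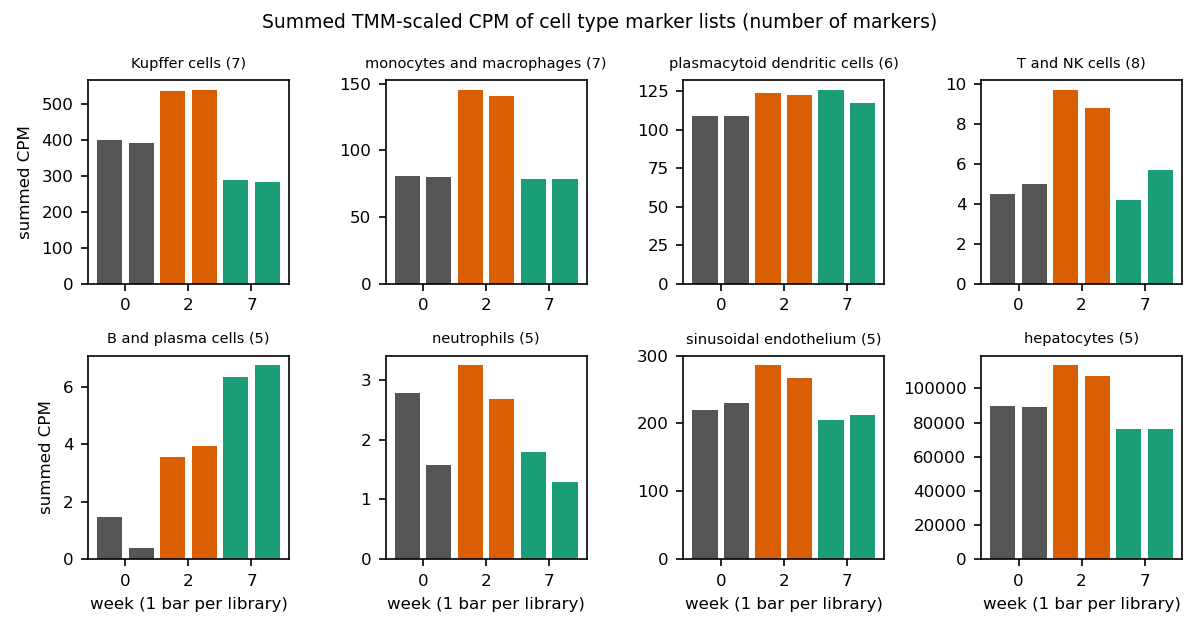
Summed TMM-scaled CPM of 8 lists of cell type markers in each of the 6 libraries (1 bar per library, axes from 0, scales differ between panels). Kupffer cell markers run from 391 to 400 at week 0 to 538 and 541 at week 2 and 284 to 290 at week 7.

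Lymphoid and granulocyte markers summed to less than 10 CPM in every library. T and NK cell markers summed to 4.49 and 4.98 CPM at week 0, 9.72 and 8.83 at week 2, then 4.2 and 5.71 at week 7, and neutrophil markers to between 1.29 and 3.25 CPM. B and plasma cell markers summed to 1.46 and 0.394, 3.55 and 3.93, and 6.35 and 6.75 CPM. Jchain, a plasma cell gene, made up most of the week 7 sum, at 5.35 and 4.85 CPM, and was not called (edgeR adjusted p = 0.253). The B cell gene Ms4a1 was the 1 of 5 called against week 0, lower at week 7, with 19 and 11 counts at week 0, 32 and 65 at week 2, then 0 and 0 at week 7 (edgeR adjusted p = 0.0344). That call was lost in limma voom (adjusted p = 0.129), with only the 4 libraries compared (edgeR adjusted p = 0.0928), with a replicate block (0.0752), and without any 1 library other than week 0 replicate 2 (0.0612 to 0.112), and without that library 3 of 5 were higher at week 7. Plasmacytoid dendritic cells are a main source of type I interferon. Their markers other than Bst2, a member here, summed to 5.51 and 6.59, 13.8 and 8.24, and 7.30 and 8.25 CPM. Tcf4 made up most of each sum, at 4.91 and 5.89, 11.9 and 6.79, and 6.65 and 7.69 CPM. Siglech was at most 0.912 CPM in any library, so the sum mainly gives the level of Tcf4. The hepatocyte markers split at week 2. Alb was higher (log2 0.54), while Apoa1, Ttr, Serpina1c and Hnf4a were lower (log2 -0.58, -0.55, -1.87 and -0.11), with edgeR adjusted p-values from 1.03e-08 to 0.0478. The call of Hnf4a was lost with total counts only (log2 -0.02, edgeR adjusted p = 0.808), with upper-quartile scaling (0.145), with a replicate block (0.0888) and without any 1 week 0 or week 2 library (0.153 to 0.237). At week 7, Alb, Ttr and Serpina1c were lower (log2 -0.27, -0.27 and -0.42). In each of the 8 lists, 0 markers were at 0 counts in every library. Their part in the results was not tested either.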

How the data were processed

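Gene expression was measured in 6 mouse liver libraries, grouped by the week their titles give. Poly-A RNA was made, per the labels' protocols, into TruSeq V2 libraries and sequenced as paired ends; the kit does not mark strand. Bowtie 0.12.2 and build mm8 appear in the submitters' processing notes without a role, and how reads were counted, and on which annotation, is not stated in them or in the labels. The authors deposited estimated counts for each Ensembl gene without scaling; all were whole, and rounding changed 0 of them. Low values appeared stepped, as 68.3% to 69.6% of the values from 4 to 43 were a multiple of 4 or 1 above it. As many whole numbers in that range meet this as do not. From this excess, 1 read pair was assumed, without proof, to be worth 4 counts. The floor of 3 read pairs is then 12 counts. The floor covers counting error alone, since reads carry no molecular identifiers and PCR copies count again. Symbols came from GENCODE M21 for 54409 of 54446 identifiers; the rest took no more than 0.00079% of any library.

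Genes were kept with filterByExpr in edgeR 4.0.16 (R 4.3.3), which left 15368, scaled with TMM and fitted with a robust quasi-likelihood model over all 6 libraries, 1 coefficient per week (3 residual degrees of freedom and a common BCV, the biological coefficient of variation, of 0.209). Contrasts were tested 2-sided and adjusted by Benjamini-Hochberg over all tested genes. Levels are TMM-scaled CPM, folds are ratios of the mean CPM of the weeks compared, and log2 fold changes are model estimates. SE is the size of the log2 fold change divided by the square root of F. Medians per library added 0.1 CPM. An exact permutation test of 2 against 2 cannot go below 0.333, so none is given. The methods were tested on simulated data. Tables used pandas 2.3.3 in Python 3.11.15, and figures matplotlib 3.10.9.

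The 42 genes, their lists and the tests were chosen with earlier results of these data known. Full values are given for members called at week 2 or week 7 against week 0. Other lists name up to 3 called genes in each direction by adjusted p at week 7 against week 0, or the 2 with the smallest p. A result that this rule would name is not reported here. Tgtp2, Irgm2, Ifngr2, Stat3 and Ptpn6 were named outside that rule with their values known. As alternatives, the fit was repeated with other scalings, other low-count filters, DESeq2 1.42.0, limma voom (limma 3.58.1), only the 4 libraries compared, a replicate block, counts divided by 4 and each library left out in turn. Replicates were not identical and differed beyond counting error. Shared 75-base stretches and exon overlaps were counted in GENCODE M21 transcripts.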

Additional observations from a re-analysis of the deposited data

How the results depend on the processing

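Calls were made against a spread estimated from 2 libraries per week, so leaving out 1 library weakened many of them, and the lone library left was then assumed to vary like the other weeks. Of the calls in the 42 genes, 4 of 9 at week 7 against week 0 (Ddx58, Usp18, Ifi27 and Ifitm3), 10 of 20 at week 2 against week 0 (Ifit1, Gbp2, Gbp3, Gbp7, Irgm1, Iigp1, Zbp1, Usp18, Ifi27 and Ifitm3) and 8 of 15 at week 7 against week 2 (Ifit2, Gbp2, Gbp3, Gbp7, Igtp, Irf1, Zbp1 and Rsad2) were kept in all 16 alternatives. The called members changed sign in 0 of their alternatives; of those not called, 9 of 33, 5 of 22 and 7 of 27 changed sign in at least 1. At this depth Mx1 at week 0 and the interferon ligands in every library lay under the floor of 12 counts.

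With each library left out in turn, the number higher at week 7 against week 0 ran from 4 to 8 (8 with all libraries) and the number lower from 0 to 1. At week 2 against week 0 the number higher ran from 11 to 18 (20 with all). At week 7 against week 2 the number higher ran from 1 to 3 and the number lower from 7 to 12. The median log2 fold change of the type I style genes ran from 0.0218 to 0.50 at week 7 against week 0, 1.2 to 1.61 at week 2 against week 0, and -1.35 to -0.82 at week 7 against week 2. That of the GTPases ran from 0.19 to 0.29, 0.45 to 0.55, and -0.83 to -0.18. In limma voom 1 member was lower at week 2 against week 0, and the GTPase median at week 7 against week 2 was -0.79. With total counts only, the median of all genes at week 2 against week 0 moved from 0.01 to 0.11, the GTPase median there was 0.59 and at week 7 against week 2 it was -0.68. Without the members that share over 30% of their 75-base stretches with another gene, chosen after seeing the data, the type I style median at week 7 against week 0 was 0.0507. Irgm2 at week 2 against week 0 was -0.12 with all libraries, -1.75 without week 2 replicate 1 and 0.63 without week 2 replicate 2.

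Libraries with the same replicate number did not deviate together over all tested genes (correlations -0.00, -0.02 and -0.03). No pairing by these numbers was seen, though noise in low-count genes could hide a weak pairing. With a replicate block, 7 members were higher at week 7 against week 0, 16 at week 2 against week 0 and 3 at week 7 against week 2, 9 were lower in the last, and the GTPase median there was -0.74. The counts of all genes called ran over the alternatives from 656 to 1480 higher and 553 to 1225 lower at week 7 against week 0 (1165 and 958), from 958 to 2007 higher and 807 to 1615 lower at week 2 against week 0 (1508 and 1354), and from 962 to 1831 higher and 880 to 1799 lower at week 7 against week 2 (1545 and 1495). The cause of these changes was not tested.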
